A study of Homo sapiens with 9 samples.

Results

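The 10 genes described here encode secreted factors, or enzymes that make or activate them, through which tumor cells act on blood and lymphatic vessels. They were taken by name (PDGFA, PDGFB, PDGFC, PGF, VEGFC, CCBE1, FGF1, FGF2, EDN1 and SPHK1) from the 58884 genes of a count table, and all 10 have a single row in it. The table holds RNA-seq of MDA-MB-231, a triple-negative, claudin-low human breast cancer line (Par), and of a pair of sub-populations that earlier work had selected from it in mice. LM2 is the lung metastatic variant and BrM2 the brain metastatic variant. Each line has 3 libraries, 9 in all, from cells grown as monolayers in the same serum-containing medium and harvested at different passages. None of the lines received a treatment. Each sub-population is a single derived line, so a difference from Par describes that line and was not repeated in another one of the same tropism. The labels describe cultured cells alone, so the libraries report what these lines transcribe and not what vessel cells receive.

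Blood vessels sprout when endothelial cells receive ligands of the VEGF and FGF families through receptor tyrosine kinases, and they mature when PDGF ligands draw pericytes to them. Lymphatic vessels grow mainly in response to VEGF-C, which is secreted as an inactive precursor and is cut to its active form by the protease ADAMTS3 with the help of the matrix protein CCBE1. Endothelin and sphingosine-1-phosphate act on the same vessels through G protein-coupled receptors, the first as a peptide cut from the EDN1 product and the second as a lipid made by sphingosine kinases.

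The libraries held between 14371858 and 24511786 gene counts, and 3 counts, taken as the floor of detection, were worth 0.115 to 0.221 CPM (counts scaled to a common TMM-normalized library size). Intervals given for ratios of counts cover counting error only. The label was checked against marker genes. The mesenchymal genes VIM, CD44, FN1, ZEB1, AXL, CAV1 and TGFBI summed to between 3990 and 7321 CPM per library. VIM, CD44 and AXL had higher means in BrM2 than in Par (VIM 1501 against 725 CPM). FN1, ZEB1, CAV1 and TGFBI had lower ones (FN1 290 against 886 CPM). The epithelial and luminal list summed to between 88.3 and 288 CPM. In it PGR was at 0 in every Par and LM2 library, and CDH1, CLDN3 and ESR1 had means of at most 1.2 CPM. ERBB2 was not low, with means of 83.6 to 112 CPM, and CLDN4 had a mean of 95.4 CPM in Par. EPCAM, CLDN7 and GATA3 had means of 4.33 to 15.7 CPM. The keratins KRT7, KRT8, KRT18 and KRT19, listed apart, were abundant, with sums of 725 to 2706 CPM and KRT8 means of 508 to 853 CPM. The 9 endothelial markers summed to between 98.1 and 274 CPM per library. ERG was at 0 counts in all libraries, and CDH5, VWF, TEK and EMCN did not exceed 9 counts in any. Most of the sum came from ESAM (means of 87.4 CPM in Par, 76.7 in LM2 and 157 in BrM2) and ROBO4 (24.8, 55.2 and 46.5 CPM), while PECAM1 was at 2.28 to 5.17 CPM and TIE1 at 0.0161 to 3.18 CPM. Libraries with the same replicate number resembled each other across lines, and so did replicates 2 and 3. Replicate 1 stood apart in all 3 lines, with 9452 of 13018 tested genes (72.6%) differing between replicate 1 and the other two. Each comparison of the 10 genes is therefore given from the model with the line alone and, where the call changes, also with the replicate number as a block. The same was done for most, but not all, comparisons of the partners named. Both are edgeR quasi-likelihood fits over 13018 genes, with p-values adjusted by the Benjamini-Hochberg method and a threshold of 0.05.

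FGF2 was under the filter on low counts, and the other 9 genes were tested. Compared with Par, LM2 cells had higher levels of PDGFA, PDGFB, FGF1, EDN1 and SPHK1, and near-complete loss of CCBE1 transcripts. BrM2 cells had higher levels of PDGFA, FGF1 and EDN1 too, and their CCBE1 was higher, not lower. In LM2 against Par, 5 of the 9 tested genes were higher, 1 was lower and 3 did not pass, where 8.67% of all tested genes passed in either direction, 4.16% higher and 4.51% lower. In BrM2 against Par, 4 were higher and 5 did not pass, where 13.2% of all tested genes passed and 6.24% were higher. With the block, 6 were higher and 1 lower in LM2 (34.5% of all tested genes passed, 15.5% higher and 19.0% lower), and 7 were higher in BrM2 (42.7% passed, 19.5% higher). Libraries did not overlap with those of Par for 7 of the 9 genes in LM2 (6 higher and 1 lower) and for 7 in BrM2 (all higher), and this held for 25.1% and 31.3% of all tested genes. The median log2 fold change of the 9 genes was 1.36 in LM2 and 1.21 in BrM2, and that of all 13018 genes was 0.01 and -0.02. The comparisons share the Par libraries, so their results are not independent of each other.

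**Figure D1:**
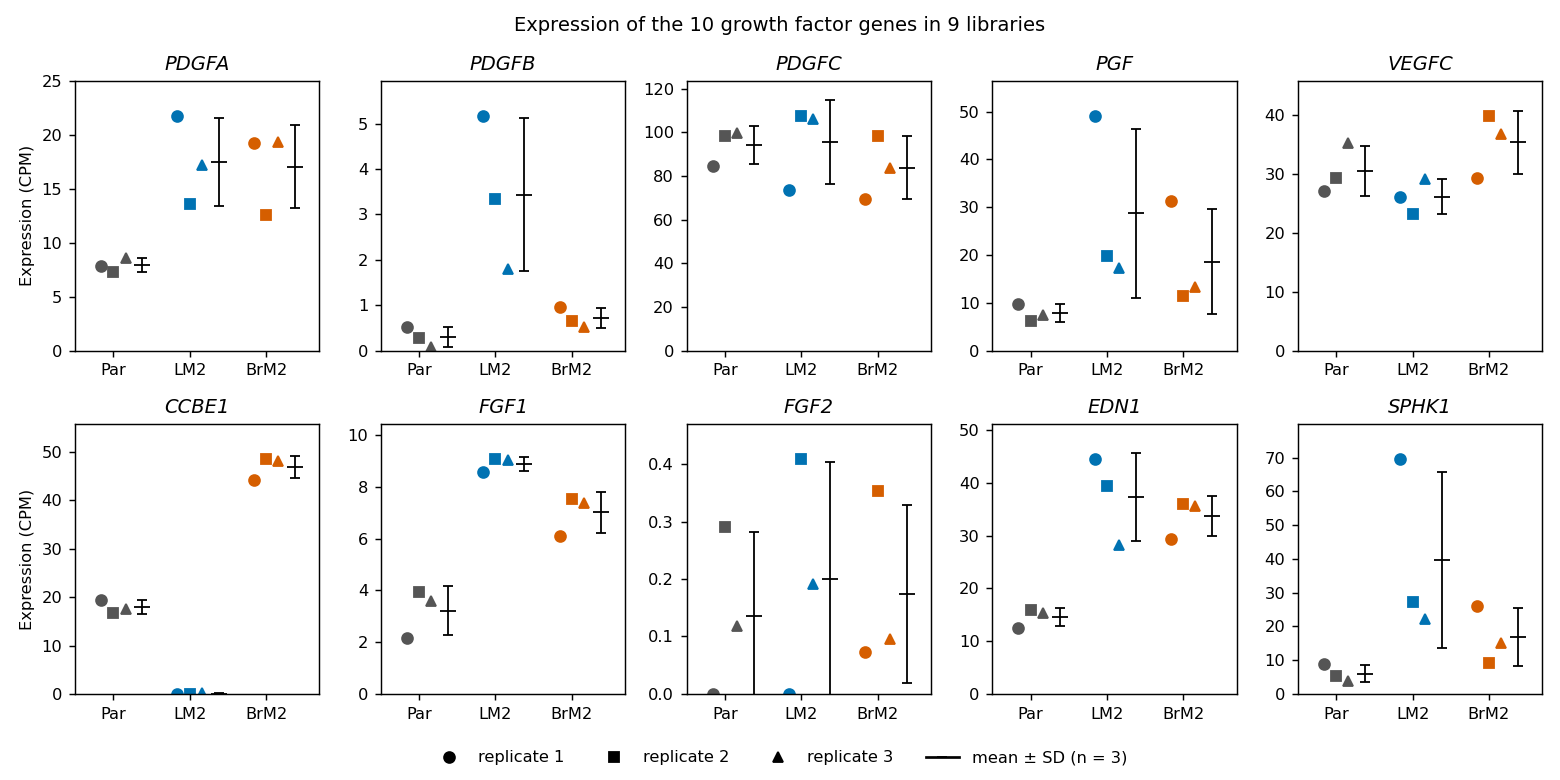
Expression of each gene in CPM on a linear axis from 0, with 1 point per library (circle, square and triangle for replicates 1, 2 and 3) and the mean ± SD of the 3 libraries of a line in black; in FGF2 the bars are cut at 0. PDGFA, PDGFB, PGF, FGF1, EDN1 and SPHK1 have all LM2 and all BrM2 libraries above the Par libraries, and CCBE1 is close to 0 in LM2 only.

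The platelet-derived growth factors PDGFA, PDGFB and PDGFC gave 3 different patterns. PDGFA (chromosome 7, 497258 to 520700 in GRCh38), whose product binds mainly PDGF receptor alpha, measured 7.83, 7.31 and 8.61 CPM in Par replicates 1, 2 and 3. It measured 21.7, 13.6 and 17.2 CPM in LM2 and 19.2, 12.6 and 19.4 CPM in BrM2. Every library of either sub-population was above every Par library, and the sub-populations overlapped each other. The rise was 2.21-fold in LM2 (log2 fold change 1.14, SE 0.26, edgeR adjusted p = 0.0262) and 2.15-fold in BrM2 (log2 fold change 1.11, SE 0.26, adjusted p = 0.0221). Both calls were lost when any Par library was left out, and also without LM2 replicate 1 or 3 and without BrM2 replicate 1 or 3 respectively, with adjusted p up to 0.12 in LM2 and 0.0967 in BrM2. Between BrM2 and LM2 the difference was -0.04 on the log2 scale (95% interval -0.61 to 0.54).

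PDGFB (chromosome 22, 39223359 to 39244982), the ligand that recruits pericytes through PDGF receptor beta, was scarce in Par. Its counts there were 10, 6 and 2, or 0.525, 0.290 and 0.0786 CPM. In LM2 it had 104, 82 and 47 counts (5.16, 3.35 and 1.80 CPM), and in BrM2 13, 15 and 11 counts (0.959, 0.662 and 0.527 CPM). LM2 therefore stood above both other lines without overlap, and replicate 1 was the highest library in each line by CPM. PDGFB passed the low-count filter through its LM2 libraries alone, so its comparisons with LM2 are not independent of the filter. From the pooled counts LM2 exceeded Par 11.9-fold, with a counting interval of 7.38 to 20.5. The fitted log2 fold change was 3.55 (SE 0.62, edgeR adjusted p = 0.00760), and the call held with any 1 library left out. In BrM2 the value was 1.28 (SE 0.66, adjusted p = 0.28), and 1.36 (SE 0.41, adjusted p = 0.0215) with the replicate block, or 0.0553 with the block and no replicate 1. PDGFB was lower in BrM2 than in LM2 by a log2 fold change of -2.28 (SE 0.56, adjusted p = 0.0406). That call did not hold without Par replicate 2, LM2 replicate 1, LM2 replicate 2 or any BrM2 library (adjusted p 0.0608 to 0.172), and with the block its adjusted p was 0.000256.

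PDGFC (chromosome 4, 156760454 to 156971799), a ligand that needs proteolytic removal of its CUB domain before it binds, was present at a high and even level in every line. It measured 84.5, 98.5 and 99.9 CPM in Par, 73.5, 107 and 106 CPM in LM2, and 69.4, 98.6 and 83.7 CPM in BrM2. The lines overlapped in each comparison, and replicate 1 was the lowest library of each line. Its log2 fold change was 0.02 in LM2 (95% interval -0.47 to 0.51) and -0.17 in BrM2 (-0.66 to 0.32), and neither passed with or without the block.

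Among the VEGF family, PGF and VEGFC behaved differently. PGF (chromosome 14, 74941830 to 74955764), placental growth factor, which binds VEGFR1 and not VEGFR2, measured 9.82, 6.20 and 7.55 CPM in Par. It reached 49.0, 19.8 and 17.3 CPM in LM2 and 31.3, 11.4 and 13.3 CPM in BrM2. All libraries of the sub-populations were above those of Par, and replicate 1 was the highest library of each line. The log2 fold change in LM2 was 1.87 (SE 0.51, edgeR adjusted p = 0.0593), just outside the threshold, and 1.73 (SE 0.20, adjusted p = 0.000104) with the block. It also passed without BrM2 replicate 1 (adjusted p = 0.0264), and with the line alone in DESeq2 (log2 fold change 1.91, adjusted p = 0.00424). In BrM2 the edgeR log2 fold change was 1.24 (SE 0.51, adjusted p = 0.165), and 1.11 (SE 0.21, adjusted p = 0.00142) with the block. Within each replicate number, PGF was 2.29 to 4.99 times as high in LM2 as in Par and 1.76 to 3.18 times as high in BrM2. BrM2 was below LM2 in each of the 3 replicate numbers. With all libraries in edgeR this difference passed only with the block (log2 fold change -0.62, SE 0.20, adjusted p = 0.0296, against -0.63 and 0.562 without it). It also passed with the line alone once replicate 1 was left out (-0.58, SE 0.18, adjusted p = 0.0421). With the block and no replicate 1 its adjusted p was 0.0632, and without LM2 replicate 1 alone the estimate was 0.0011.

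VEGFC (chromosome 4, 176683538 to 176792922), the main growth factor of lymphatic endothelium, did not separate the sub-populations from Par. Par libraries measured 27.1, 29.4 and 35.3 CPM, LM2 libraries 26.2, 23.3 and 29.1 CPM, and BrM2 libraries 29.4, 39.9 and 36.9 CPM. Par overlapped both other lines, while all BrM2 libraries were above all LM2 libraries. The log2 fold change was -0.22 in LM2 (95% interval -0.68 to 0.23) and 0.21 in BrM2 (-0.25 to 0.67). BrM2 exceeded LM2 by 0.44 (SE 0.20, edgeR adjusted p = 0.263), and by 0.43 (SE 0.14, adjusted p = 0.0321) with the block.

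CCBE1 (chromosome 18, 59430939 to 59697721) had the widest range of the 10 genes across the lines. Its product is a secreted protein with collagen repeats that brings pro-VEGF-C to ADAMTS3. Par libraries held 371, 345 and 444 counts, or 19.5, 16.7 and 17.5 CPM. LM2 libraries held 0, 1 and 4 counts, so replicates 1 and 2 were under the floor of 3 counts, and replicate 3 was just above it at 0.153 CPM. BrM2 libraries held 601, 1098 and 1003 counts, or 44.3, 48.5 and 48.1 CPM. The 3 lines did not overlap in any pairing. Pooled counts placed Par 252-fold above LM2 (counting interval 108 to 778) and BrM2 670-fold above LM2 (287 to 2065). The fitted log2 fold change was -7.89 in LM2 (SE 0.51, edgeR adjusted p = 8.48e-05) and 9.28 for BrM2 against LM2 (SE 0.53, adjusted p = 6.56e-05), and both calls held with any 1 library left out. The rise in BrM2 over Par was 2.63-fold (log2 fold change 1.39, SE 0.33, adjusted p = 0.0250). It fell outside the threshold without any 1 Par library or without BrM2 replicate 2 or 3 (adjusted p up to 0.118), and with the block its adjusted p was 0.000137. An unnamed gene on the opposite strand (ENSG00000267774) shares 355 exon bases with CCBE1, but held at most 1 count in any library.

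The start of CCBE1 is shown because the gene was the only one of the 10 to go from a readily counted transcript to near 0. RefSeq's GRCh38.p14 table gives it 1 promoter window, from 250 bases before to 50 bases after the annotated start, on the minus strand. The window was searched for 6 motifs: the TATA box, on the sense strand only, as TATAAA, and the others on both strands. These were AP-1, searched for as TGANTCA, and the motif of the AP-2 factors, with the letters GCCNNNGGC. The Ets core was written as GGAAGT, the motif of the Sp1 family was taken to be GGGCGG, and for the GATA factors the search used the letters AGATAA. Any match is set in capitals. It holds none of them and is printed in lower case throughout. It has 25 CpG dinucleotides, against a median of 14 and quartiles of 4 and 28 over 35116 windows of the table.
CCBE1 chr18:59697374-59697673 (minus strand): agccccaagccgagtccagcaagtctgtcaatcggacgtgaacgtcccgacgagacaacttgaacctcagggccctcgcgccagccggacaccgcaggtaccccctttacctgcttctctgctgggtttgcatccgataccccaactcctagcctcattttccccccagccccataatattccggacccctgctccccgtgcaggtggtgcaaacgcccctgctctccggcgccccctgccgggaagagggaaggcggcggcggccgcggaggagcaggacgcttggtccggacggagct

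FGF1 and FGF2 are the acidic and basic fibroblast growth factors, both exported without a signal peptide. FGF1 (chromosome 5, 142592178 to 142698070) measured 2.15, 3.92 and 3.58 CPM in Par, 8.59, 9.06 and 9.05 CPM in LM2 and 6.12, 7.55 and 7.38 CPM in BrM2. The lines did not overlap, and the LM2 libraries lay closest together, with an SD of 0.27 CPM. FGF1 rose 2.76-fold in LM2 (log2 fold change 1.46, SE 0.26, edgeR adjusted p = 0.00813) and 2.18-fold in BrM2 (log2 fold change 1.12, SE 0.26, adjusted p = 0.0205). The LM2 call held with any 1 library left out. The BrM2 call did not hold without Par replicate 1 or 3 or BrM2 replicate 2 or 3 (adjusted p 0.0501 to 0.0798). BrM2 and LM2 differed by -0.34 (95% interval -0.91 to 0.23), which did not pass in either fit.

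FGF2 (chromosome 4, 122826682 to 122898236) was at the edge of detection in all lines. It had 0, 6 and 3 counts in Par, 0, 10 and 5 in LM2 and 1, 8 and 2 in BrM2. Every line had a library at or under the floor, the lines overlapped fully, and replicate 2 was the highest library in each. FGF2 also shares 804 exon bases with NUDT6 on the opposite strand, which held 66 to 189 counts per library, and the strand setting of the counting is not given in the sources used here. In a fit without the filter on low counts its log2 fold change was 0.57 in LM2 (95% interval -1.28 to 2.42, edgeR adjusted p = 0.857) and 0.43 in BrM2 (SE 0.95, adjusted p = 0.904), and differences within such intervals were not detectable at this depth.

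EDN1 (chromosome 6, 12230516 to 12297194), the precursor of the vasoconstrictor endothelin-1, rose to a like level in both sub-populations. Par libraries measured 12.6, 15.9 and 15.3 CPM, LM2 libraries 44.4, 39.5 and 28.2 CPM, and BrM2 libraries 29.3, 36.0 and 35.7 CPM. No library of either sub-population overlapped Par. The fold was 2.56 in LM2 (log2 fold change 1.36, SE 0.23, edgeR adjusted p = 0.00629) and 2.31 in BrM2 (log2 fold change 1.21, SE 0.23, adjusted p = 0.00796). Both calls held with any 1 library left out. BrM2 and LM2 overlapped, with a difference of -0.15 (95% interval -0.65 to 0.35).

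SPHK1 (chromosome 17, 76383204 to 76387855), one of the kinases that phosphorylate sphingosine, had the largest rise in LM2 after PDGFB. It measured 8.83, 5.33 and 3.77 CPM in Par, 69.5, 27.2 and 22.3 CPM in LM2 and 26.2, 9.23 and 15.2 CPM in BrM2. Replicate 1 was again the highest library of each line, and within a replicate number LM2 was 5.11 to 7.87 times as high as Par. The lowest BrM2 library was only slightly above the highest Par library. The log2 fold change in LM2 was 2.73 (SE 0.57, edgeR adjusted p = 0.0188), a call that was lost without Par replicate 2 (adjusted p = 0.0928) or Par replicate 3 (0.0791). In BrM2 the fold was 2.82 (SE 0.55 on the log2 scale, adjusted p = 0.124), and with the block the log2 fold change was 1.48 (SE 0.23, adjusted p = 0.000441). DESeq2 with the line alone called this rise in BrM2 (log2 fold change 1.53, adjusted p = 0.0388). In edgeR, BrM2 was lower than LM2 by 1.24 on the log2 scale without the block (adjusted p = 0.236) and by 1.16 with it (SE 0.21, adjusted p = 0.00191, or 0.0513 with the block and no replicate 1). SPHK1 shares 59 exon bases with PRPSAP1 on the opposite strand, a gene with 914 to 1496 counts per library.

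EDN1 and SPHK1 are shown as a pair of genes that were higher in LM2 but differ in the makeup of the start window printed. For each, the window with the most motif matches of the 3 windows listed is printed, 5′ to 3′ on the plus strand, with matches in capitals. That of EDN1 holds a TATA box whose first base lies at -31 from the annotated start and a GATA match on the minus strand at -136. A TATA box is present in 7.3% and a GATA match in 10.3% of all 35116 windows. That of SPHK1 holds 3 AP-2 matches at -125, -107 and -87, which 23.2% of windows have at least once, and Sp1 matches at -149 and -28, which 45.0% of windows have. None of the matches overlap. The SPHK1 window has 46 CpG dinucleotides and the EDN1 window 15. The shares are those of any window, while these windows were picked for their matches. The other SPHK1 windows hold AP-1 and Sp1 matches (38 CpG dinucleotides) or AP-1 alone (20), and no AP-2 match. Those of EDN1 hold an Sp1 match (13) or no match (8), and no TATA box.
EDN1 chr6:12290111-12290410 (plus strand): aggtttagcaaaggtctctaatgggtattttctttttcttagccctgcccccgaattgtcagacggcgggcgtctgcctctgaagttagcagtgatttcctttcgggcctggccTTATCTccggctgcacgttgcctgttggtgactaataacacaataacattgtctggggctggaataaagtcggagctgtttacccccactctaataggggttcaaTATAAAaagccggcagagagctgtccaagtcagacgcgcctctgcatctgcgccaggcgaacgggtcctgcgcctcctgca
SPHK1 chr17:76384359-76384658 (plus strand): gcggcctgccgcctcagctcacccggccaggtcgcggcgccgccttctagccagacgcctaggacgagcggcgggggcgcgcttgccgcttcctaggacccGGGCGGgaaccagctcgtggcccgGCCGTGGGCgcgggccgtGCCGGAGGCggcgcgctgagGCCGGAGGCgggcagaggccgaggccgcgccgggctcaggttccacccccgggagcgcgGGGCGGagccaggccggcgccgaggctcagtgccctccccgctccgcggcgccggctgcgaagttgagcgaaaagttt

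**Figure D2:**
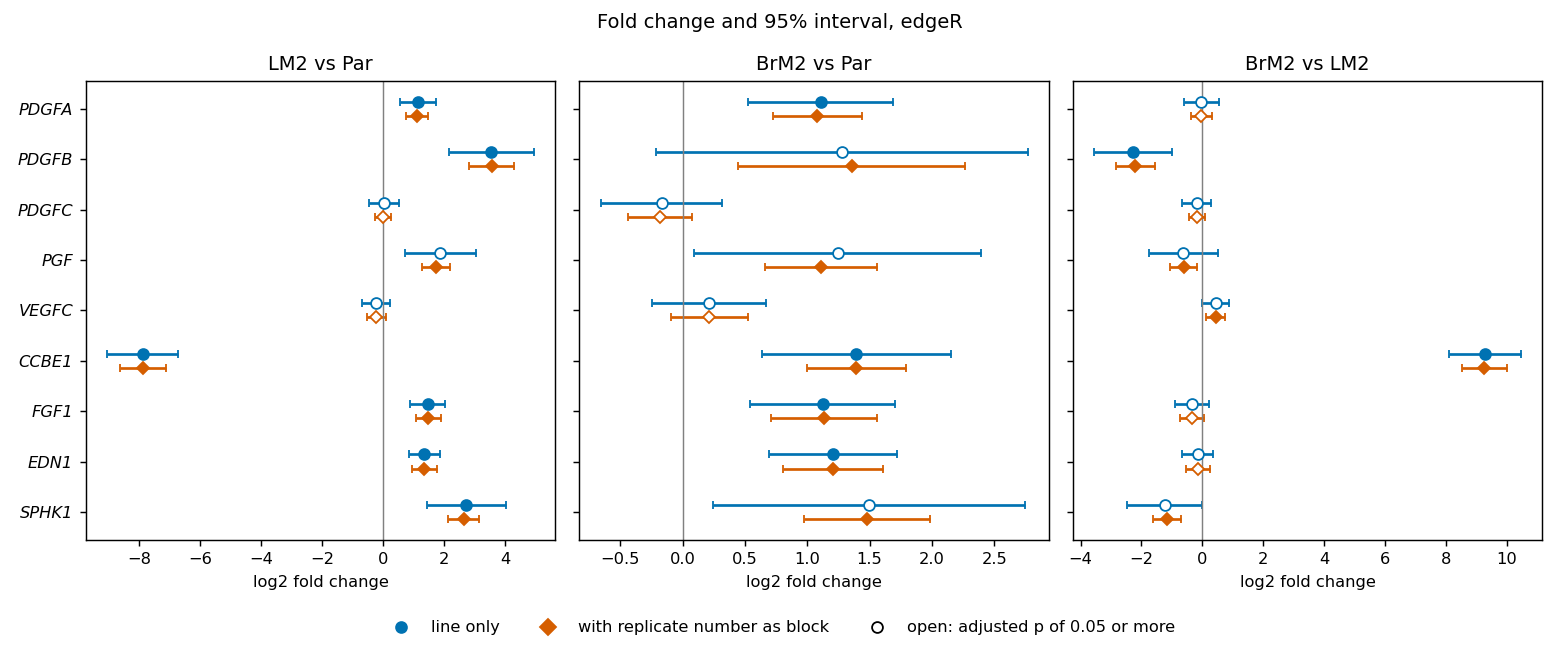
log2 fold change of the 9 tested genes in 3 comparisons, with 95% intervals, from the model with the line alone (blue circles) and with the replicate number as a block (orange diamonds); filled symbols have an adjusted p under 0.05, and each panel has its own horizontal axis. The estimates barely move between the models while the intervals of PDGFB, PGF and SPHK1 narrow, and CCBE1 lies at -7.89 in LM2 and 1.39 in BrM2.

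The direct comparison of BrM2 with LM2 had 1 gene higher (CCBE1), 1 lower (PDGFB) and 7 that did not pass, where 8.10% of all tested genes passed, 4.09% higher and 4.01% lower. With the block, 2 were higher (CCBE1 and VEGFC), 3 were lower (PDGFB, PGF and SPHK1) and 4 did not pass, where 37.5% of all tested genes passed, 17.8% higher and 19.7% lower. PDGFA, PDGFC, FGF1 and EDN1 passed in neither fit. Libraries did not overlap between the sub-populations for 4 genes (CCBE1 and VEGFC higher in BrM2, PDGFB and FGF1 lower), and 23.2% of all tested genes did not overlap.

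Levels of different genes were set side by side per kilobase of transcript. In Par the order of mean CPM per kb was PDGFC (20.6 ± 1.86, SD, n = 3), VEGFC (13.5 ± 1.87), EDN1 (7.16 ± 0.88), PGF (4.52 ± 1.05), SPHK1 (3.29 ± 1.42), PDGFA (2.89 ± 0.24), CCBE1 (2.85 ± 0.23), FGF1 (0.859 ± 0.25), PDGFB (0.0800 ± 0.060) and FGF2 (0.0205 ± 0.022). Neighbours from PGF to CCBE1 overlapped in their libraries, as did PDGFB and FGF2, and the others did not. In LM2 SPHK1 had the highest mean (21.8 ± 14.3 CPM per kb), but its libraries overlapped those of PDGFC (20.9 ± 4.22), and each neighbour down to VEGFC overlapped the next. PDGFB in LM2 (0.922 ± 0.45 CPM per kb) reached about the level of FGF1 in Par, and CCBE1 (0.0103 ± 0.013) fell to the last place, overlapping FGF2. In BrM2 PDGFC (18.4 ± 3.19 CPM per kb), EDN1 (16.5 ± 1.87) and VEGFC (15.7 ± 2.38) overlapped in sequence at the top, and CCBE1 (7.49 ± 0.37) was above PDGFA without overlap.

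**Figure D3:**
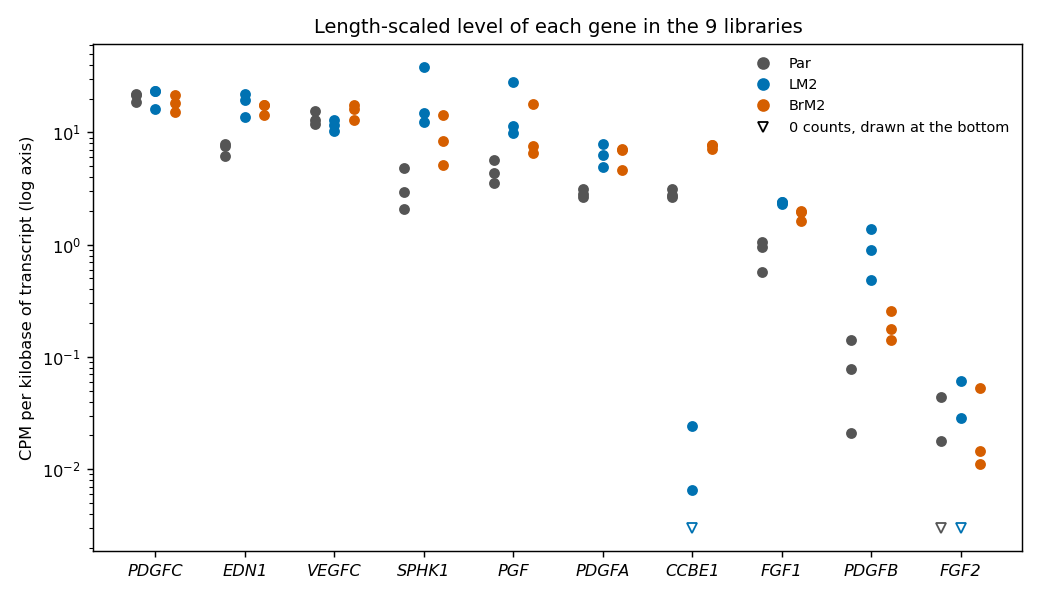
CPM per kilobase of transcript of each gene on a log axis, with 1 point per library colored by line; open triangles mark libraries with 0 counts and are drawn at the bottom because a log axis has no 0. PDGFC is near 20 CPM per kb in all lines, and CCBE1 spans from 7.49 in BrM2 to 0.0103 in LM2.

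The shift of replicate 1 did not fall evenly on these genes. In the block model, replicate 1 minus replicates 2 and 3 was 1.21 on the log2 scale for SPHK1 (SE 0.18, edgeR adjusted p = 0.000182), 1.12 for PGF (SE 0.17, adjusted p = 0.000171), 1.06 for PDGFB (SE 0.27, adjusted p = 0.00434) and -0.39 for PDGFC (SE 0.10, adjusted p = 0.00590). The other 5 genes had shifts between -0.34 (FGF1) and 0.28 (PDGFA) that did not pass. The GC content of the transcripts was 43.7% in PDGFC, 60.6% in PDGFB, 63.0% in PGF and 65.0% in SPHK1. The order of the shifts was not strictly that of GC, as VEGFC, at 54.3% GC, had a shift of -0.21, below those of EDN1 (45.1% GC, -0.044) and CCBE1 (45.3% GC, -0.0043). As a description, Spearman's rho of shift with GC was 0.95 over the 9 genes and 0.81 over the 12902 tested genes with a GC value, all measured in the same 9 libraries. The 3 GC-rich genes are the ones whose calls against Par changed with the block, and the part of GC content in their values was not tested.

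**Figure D4:**
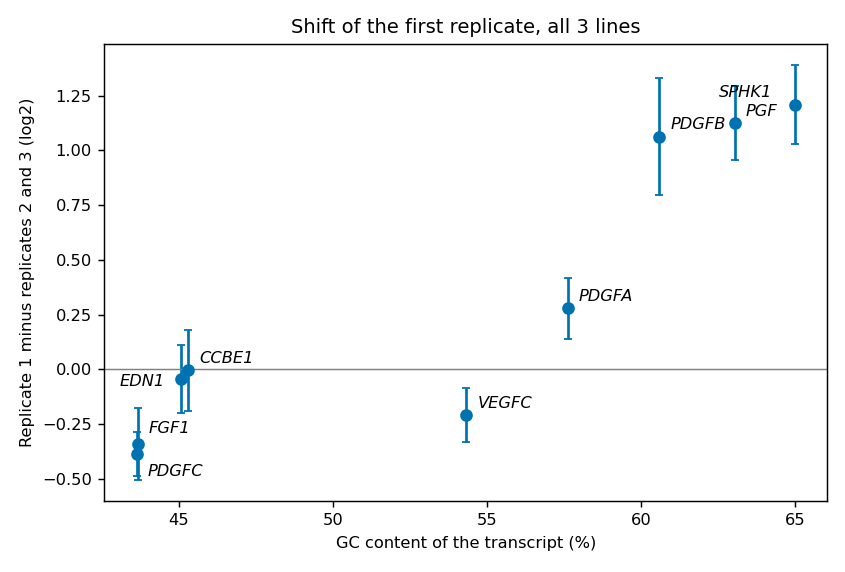
log2 difference between replicate 1 and replicates 2 and 3 over all 3 lines, from the block model, against the GC content of the transcript in percent, with 1 point per gene and bars of 1 SE. SPHK1, PGF and PDGFB, the transcripts with most GC, lie between 1.06 and 1.21, and PDGFC lies at -0.39.

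The partners of the 10 genes were read from 10 lists of ligands, processing proteins, receptors and inhibitors. Of 82 further genes, 80 were found under a single identifier and 45 could be tested. In LM2 9 of these were higher, 4 lower and 32 did not pass, and with the block 12 were higher and 11 lower. In BrM2 12 were higher, 8 lower and 25 did not pass, and with the block 16 were higher and 15 lower. Between BrM2 and LM2 8 were higher, 3 lower and 34 did not pass, and with the block 12 were higher and 10 lower. The shares of all tested genes that passed are those given above. The lists were also chosen with earlier results of these data known, so these counts are a description. Their median log2 fold changes were -0.06 in LM2, -0.02 in BrM2 and -0.01 between the sub-populations.

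PDGFD, the fourth PDGF ligand and one that binds PDGF receptor beta, rose in both sub-populations. It had 6 counts in the 3 Par libraries together and was 31.8-fold higher in LM2 (counting interval 14.3 to 87.6) and 47.4-fold higher in BrM2 (21.5 to 130), with edgeR adjusted p of 0.00506 and 0.0021. PDGFRB, the receptor of PDGFB and PDGFD, moved the other way. Its mean fell from 28.9 CPM in Par to 6.05 in LM2 (log2 fold change -2.26, SE 0.38, adjusted p = 0.00668) and 8.05 in BrM2 (-1.85, SE 0.38, adjusted p = 0.0122). The BrM2 call was lost without BrM2 replicate 2 or 3 (adjusted p up to 0.0641). PDGFRA, the receptor of PDGFA and PDGFC, held at most 5 counts in any library. PDGFRL, a secreted receptor-like protein, rose by 1.16 in LM2 and 1.25 in BrM2 (adjusted p = 0.0302 and 0.0163). Both PDGFRL calls were lost without Par replicate 2 or 3, the LM2 call also without LM2 replicate 1 or 2 or BrM2 replicate 2 or 3, and the BrM2 call also without BrM2 replicate 2 or 3 (adjusted p up to 0.135 and 0.0773).

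VEGFA, the main angiogenic ligand of the family, was lower in BrM2 than in Par. Per kilobase its mean level in Par was 64.8 CPM per kb, against 13.5 for VEGFC and 4.52 for PGF. It measured 234 ± 18.0 CPM in Par, 195 ± 18.0 in LM2 and 146 ± 2.61 in BrM2 (SD, n = 3), and the fall passed in BrM2 alone (log2 fold change -0.68, SE 0.15, edgeR adjusted p = 0.0185). That call was lost without Par replicate 2 or 3 or BrM2 replicate 2 or 3 (adjusted p up to 0.0852). Its difference between BrM2 and LM2 passed only with the block (adjusted p = 0.149 without it and 0.0148 with it). NRP2, a co-receptor of VEGF-C, fell in LM2 (-1.15, adjusted p = 0.00611) and BrM2 (-0.73, adjusted p = 0.0341). The LM2 call held with any 1 library left out, and the BrM2 call was lost without any Par or BrM2 library or without LM2 replicate 2 (adjusted p up to 0.131). NRP2 was higher in BrM2 than in LM2 only with the block (log2 fold change 0.43, adjusted p = 0.0382, and 0.251 without it). Of the receptor kinases, FLT4 (VEGFR3, the receptor of VEGF-C) held at most 1 count in any library. FLT1 (VEGFR1, the receptor of PGF) did not pass the low-count filter, with 0.0131 CPM in Par, 0.417 in LM2 and 1.72 in BrM2. KDR (VEGFR2) was at 4.95 CPM in Par, 5.74 in LM2 and 7.98 in BrM2, and its log2 fold change of 0.69 in BrM2 passed only with the block (adjusted p = 0.126 without it and 0.0169 with it).

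ADAMTS3, the protease that works with CCBE1, did not differ beyond the spread between libraries without the block. It was at 2.39 ± 1.04 CPM in Par, 4.11 ± 1.47 in LM2 and 3.53 ± 0.90 in BrM2 (SD, n = 3), and its log2 fold change of 0.78 in LM2 passed only with the block (edgeR adjusted p = 0.357 without it and 0.0178 with it). ADAMTS14, a related protease that can also cut VEGF-C, fell from 5.54 CPM in Par to 1.67 in LM2 (log2 fold change -1.73, SE 0.32, adjusted p = 0.0105), with the call at the threshold without Par replicate 2 (adjusted p = 0.050). BrM2 had 2 counts of it in all 3 libraries, 157-fold below Par (counting interval 43.1 to 1300). The proprotein convertases PCSK5 and PCSK6, which activate many secreted precursors, rose in BrM2. PCSK5 went from 0.190 CPM in Par to 1.88 in LM2 and 10.7 in BrM2 (adjusted p = 0.00115 and 7.19e-05). PCSK6 was at 0.466 CPM in Par and 0.564 in LM2 and rose to 15.8 in BrM2 (log2 fold change 5.08, SE 0.33, adjusted p = 6.49e-05). PCSK6 passed the low-count filter through BrM2 alone, as it held at most 11 counts in a Par library and 21 in an LM2 library. FURIN, a convertase with like substrates, was at 102 CPM in LM2 and 39.3 in BrM2, and its log2 fold change of -1.27 in BrM2 against Par passed only with the block (adjusted p = 0.0784 without it and 0.0002 with it). The same held for FURIN in BrM2 against LM2 (-1.38, adjusted p = 0.0826 without the block and 0.000233 with it). CTSD, the lysosomal protease cathepsin D, which can also cut VEGF-C, was at 335 ± 107 CPM in Par, 108 ± 63.9 in LM2 and 77.8 ± 60.4 in BrM2 (SD, n = 3). Its log2 fold change of -2.11 in BrM2 (SE 0.60) lay at the threshold, was lost without any Par library, LM2 replicate 2 or 3 or BrM2 replicate 2 or 3 (adjusted p up to 0.18), and had an adjusted p of 9.42e-05 with the block. In LM2 the CTSD value was -1.63 (SE 0.59, adjusted p = 0.149), with an adjusted p of 0.000644 with the block.

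FGF1 was one of only 2 FGF ligands tested among 22, as 20 were under the filter and 6 of them were at 0 counts in all libraries. The other, FGF5, was at 8.16 CPM in Par and 9.03 in LM2 and rose to 29.6 in BrM2 (log2 fold change 1.86, SE 0.36, edgeR adjusted p = 0.00883). FGFR1, a receptor of FGF1 and FGF2, was at 183 to 216 CPM in the 3 lines with no call in any comparison. FGFR2 held at most 5 counts in any library. FGFR4 was higher in BrM2 than in LM2 (log2 fold change 2.48, SE 0.52, adjusted p = 0.0204), a call that was lost without LM2 replicate 2 or 3 (adjusted p up to 0.099). Its log2 fold change of 1.70 in BrM2 against Par passed only with the block (adjusted p = 0.0593 without it and 0.000506 with it). FGFBP3, a carrier that releases FGFs from matrix, rose 1.94-fold in BrM2 (adjusted p = 0.0176), and this call was lost without any Par library or without BrM2 replicate 2 or 3 (adjusted p up to 0.0728). FGFBP3 was higher in BrM2 than in LM2 only with the block (adjusted p = 0.147 without it and 0.043 with it).

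Among the 4 tested partners of EDN1, only the B receptor passed without the block, and it did so in all 3 comparisons. EDNRB, the endothelin B receptor, rose from 10.1 CPM in Par to 17.4 in LM2 (log2 fold change 0.78, SE 0.20, edgeR adjusted p = 0.0470) and fell to 5.82 in BrM2 (-0.80, SE 0.20, adjusted p = 0.0321). The LM2 call was lost with any 1 library left out (adjusted p up to 0.159), and the BrM2 call without any BrM2 library, Par replicate 2 or 3 or LM2 replicate 2 or 3 (up to 0.145). The difference between BrM2 and LM2 (-1.58, SE 0.21, adjusted p = 0.00198) held in each case. EDNRA, the A receptor, was at 1.21 to 1.99 CPM and ECE1, which cuts the precursor to the active peptide, at 277 to 288 CPM, neither with a call in either fit. EDN2, a related endothelin, was at 1.76 CPM in Par, 0.573 in LM2 and 0.828 in BrM2. Its log2 fold changes of -1.59 in LM2 and -1.12 in BrM2 passed only with the block (adjusted p = 0.0523 and 0.132 without it, 0.00701 and 0.0239 with it). EDN3 was at 0 counts in all libraries.

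Among partners of SPHK1, the receptors S1PR3 and S1PR5 for its lipid product rose, while S1PR1 and S1PR2 were not called without the block. S1PR3 went from 2.63 CPM in Par to 7.06 in LM2 and 26.8 in BrM2 (log2 fold change 1.42, SE 0.22, edgeR adjusted p = 0.00481, and 3.35, SE 0.24, adjusted p = 8.67e-05). S1PR5 went from 1.14 to 3.40 and 4.61 CPM (1.58, SE 0.29, adjusted p = 0.0107, and 2.02, SE 0.30, adjusted p = 0.00227). Without the block, these were the 2 of 9 tested partners in this list that passed against Par. With it, CIB1, a protein that binds SPHK1, was also higher in LM2 (log2 fold change 0.63, adjusted p = 0.0115, and 0.433 without it), and SGPP1, a phosphatase of the lipid, was lower in BrM2 (-0.57, adjusted p = 0.0055, and 0.132 without it). The S1PR5 call in LM2 was lost without Par replicate 2 or LM2 replicate 2 (adjusted p up to 0.0544). Between BrM2 and LM2, 1 of the 9 partners (S1PR3) was higher in BrM2 without the block. With the block 2 were higher and 2 lower. S1PR1, the main receptor of the lipid on endothelium, was at 3.41 to 4.73 CPM with no call. S1PR2 was at 2.73 CPM in Par, 2.12 in LM2 and 3.76 in BrM2. SPHK2, the other sphingosine kinase, was at 10.5 to 13.3 CPM with no call, and S1PR4 held at most 1 count in any library.

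**Figure D5:**
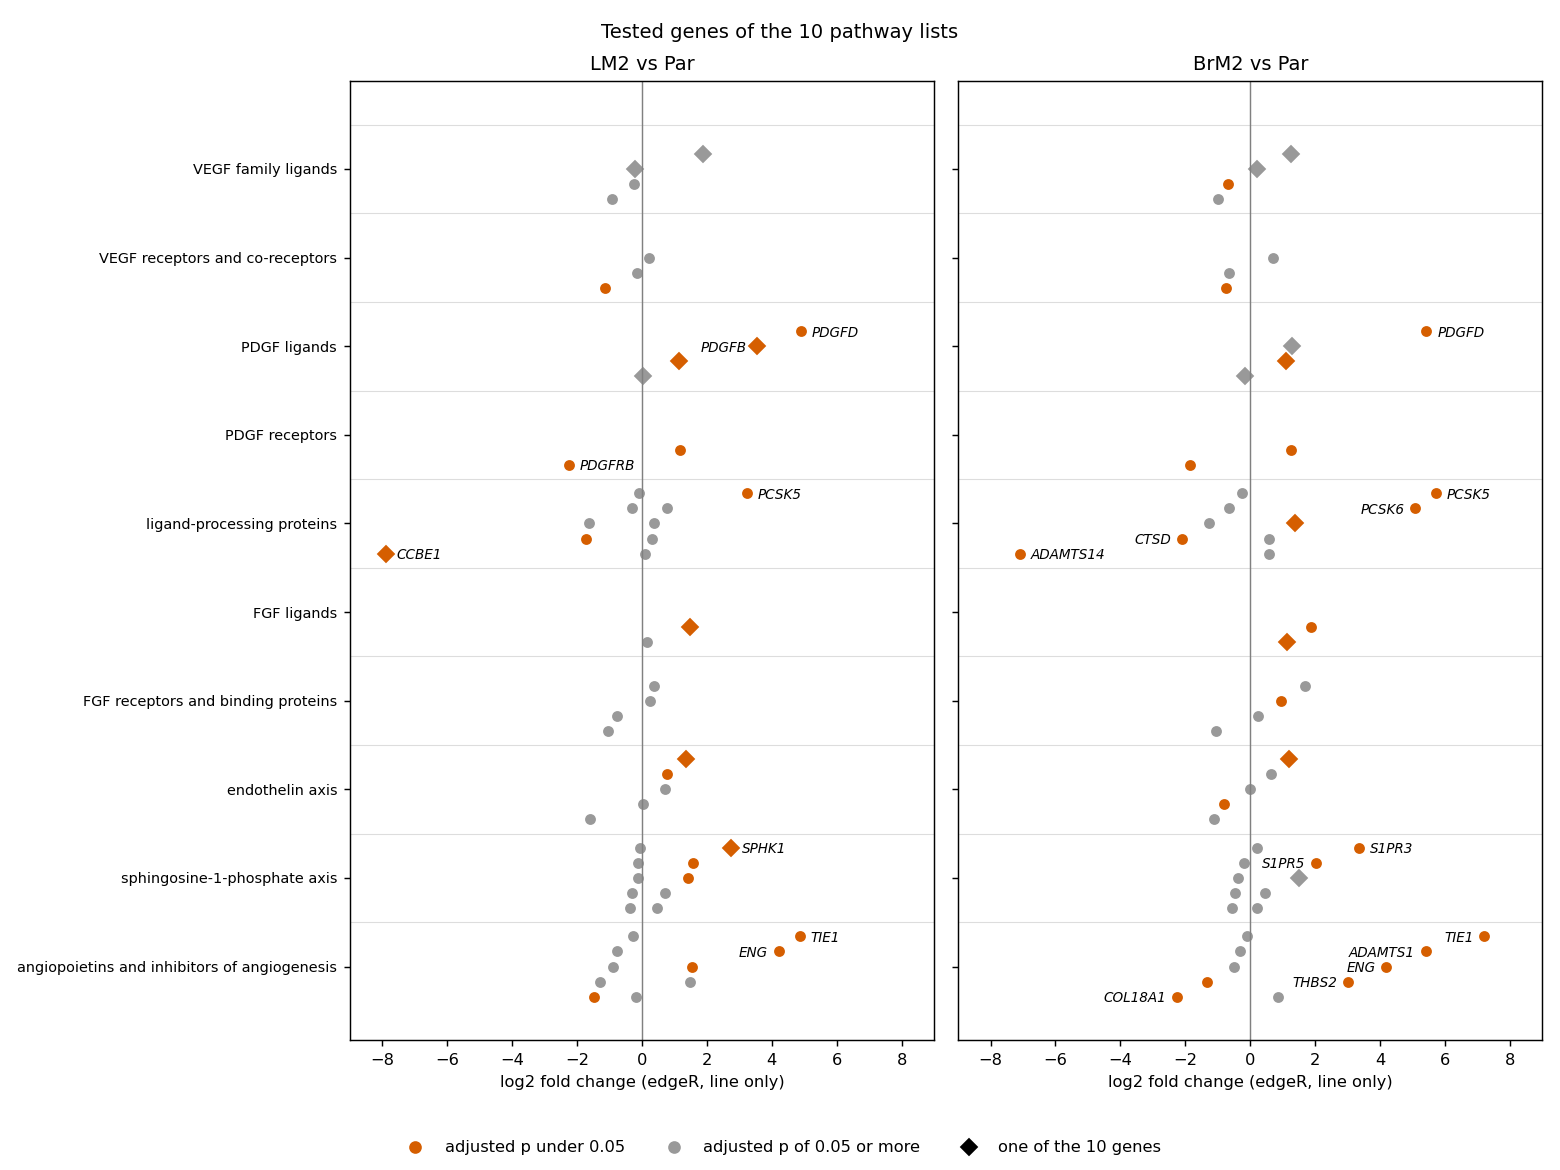
log2 fold change against Par of every tested gene of the 10 lists, with 1 symbol per gene, diamonds for the 10 growth factor genes and orange for an adjusted p under 0.05 in the model with the line alone; names are given for genes past that threshold with a change over 1.9. CCBE1 at -7.89 is the lowest value in LM2 and ADAMTS14 at -7.09 the lowest in BrM2, and TIE1 at 7.21 is the highest in BrM2.

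RNA of the genes listed as angiopoietins and inhibitors of angiogenesis moved in both directions, but no angiopoietin was called without the block. ANGPT1 was at 4.99 CPM in Par, 4.41 in LM2 and 3.50 in BrM2, and ANGPT2 and ANGPT4 were under the low-count filter. ENG, a co-receptor of the TGF-beta family, rose from 2.37 CPM in Par to 44.1 in LM2 and 43.5 in BrM2 (log2 fold changes 4.21 and 4.19, SE 0.32 each, edgeR adjusted p = 0.000133 and 0.00012). TIE1, an orphan receptor, had 1 count in the 3 Par libraries and rose 39.6-fold in LM2 (counting interval 6.74 to 1600) and 192-fold in BrM2 (33.9 to 7617). TIE1 passed the low-count filter through BrM2 alone, as it held at most 17 counts in an LM2 library. Both ENG and TIE1 are also used as endothelial genes. Of the other endothelial markers, ROBO4 and ESAM had the means given above. ROBO4 passed only with the block, with log2 fold changes there of 1.07 in LM2 and 0.84 in BrM2 (adjusted p = 0.0874 and 0.147 without it, 0.000611 and 0.00195 with it). ESAM differed from Par by 0.84 in BrM2 (adjusted p = 0.132 without the block and 0.000746 with it) and by -0.19 in LM2, with no call there. PECAM1 had a log2 fold change of -1.18 in LM2 (adjusted p = 0.0516 without the block and 0.00445 with it), and ERG, CDH5, VWF, TEK and EMCN were at or near 0. The part of endothelial transcripts in the ENG and TIE1 values was not tested. The anti-angiogenic proteases and thrombospondins differed by line. ADAMTS1 was at 5.91 CPM in Par, 3.21 in LM2 and 250 in BrM2 (log2 fold change 5.40, SE 0.31, adjusted p = 3.55e-05). THBS2 fell from 2.86 CPM in Par to 1.01 in LM2 (-1.49, SE 0.25, adjusted p = 0.00651) and rose to 23.1 in BrM2 (3.01, SE 0.25, adjusted p = 0.00015). THBS1 fell in BrM2, from 1570 to 628 CPM (-1.32, SE 0.23, adjusted p = 0.0052). COL18A1, another gene of this list, was also called lower in BrM2, with means of 55.6 CPM in Par, 22.6 in LM2 and 11.7 in BrM2. That call was lost without Par replicate 1 or 2, LM2 replicate 2 or BrM2 replicate 2 or 3 (adjusted p up to 0.145). With the block, ADAMTS1 was also lower in LM2 than in Par (-0.88, adjusted p = 0.00135, and 0.0843 without it). THBS1 then passed in LM2 (-0.75, adjusted p = 0.00165, and 0.0742 without it) and between BrM2 and LM2 (-0.57, adjusted p = 0.00737, and 0.194 without it). ANGPTL4 rose 2.88-fold in LM2 (adjusted p = 0.0372), a call that was lost without any Par library, LM2 replicate 1 or 2 or BrM2 replicate 2 or 3 (adjusted p up to 0.135).

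For the 3 genes with the widest range of mean log2 CPM across lines, the tested genes with the most similar profile were ranked by Pearson's r of log2 CPM over the 9 libraries, as a description. CCBE1 was followed most closely by EHD3 (r = 0.989), ZFP36L2 (0.984) and TSPAN8 (0.983). EHD3 had 5.75 CPM in Par, 0.475 in LM2 and 12.3 in BrM2, the same order of lines as CCBE1. For PDGFB the nearest were RPA1 (0.987), SAP18 (0.978) and KIF20A (0.976). RPA1 had 282 CPM in Par, 391 in LM2 and 321 in BrM2, a narrower range than that of PDGFB. For SPHK1 they were NXPH4 (0.987), EBI3 (0.984) and SLC7A1 (0.977). The 9 libraries share the replicate 1 shift, which enters these values too.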

How the data were processed

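RNA was measured in 9 libraries, 3 each of Par, LM2 and BrM2, grouped by the labels. The authors made stranded mRNA libraries, sequenced paired ends, aligned them to hg38 with STAR 2.7.0 and deposited gene counts without normalization. The strand setting is not given in the sources used here. A deposited table of the authors' own DESeq2 comparisons (log2 fold changes and adjusted p-values) was not used. Of 58887 rows, 3 repeat identifiers already listed with the same counts and were dropped.

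Genes were kept where the largest normalized count exceeded 47.1, the threshold of a Jaccard-index filter written after HTSFilter (100 thresholds from 1 to 200, loess span 0.3), which left 13018 genes holding at least 99.6% of each library's counts. A gene could pass through 1 library, so a gene that was high in a single line was tested through that line. The 3 comparisons were tested in edgeR 4.0.16 by the 2-sided quasi-likelihood test with TMM normalization and the line as the only factor, on all 9 libraries, with Benjamini-Hochberg adjustment over all genes tested and a threshold of 0.05. The SE is the log2 fold change divided by the root of the F statistic. CPM use TMM-normalized library sizes, and correlations used log2 CPM with a prior count of 2. Ratios of low counts carry exact binomial 95% intervals. Transcript length and GC content are those of the canonical transcript in the GENCODE annotation of GRCh37. Gene positions and promoter windows are RefSeq's for GRCh38.p14, where 8 of the 10 genes have a window. The script was tested on simulated data without a replicate effect and with less spread between libraries than the fit with the line alone found here. That test therefore does not cover the replicate 1 shift. R 4.3.3, limma 3.58.1, DESeq2 1.42.0, Python 3.11.15, numpy 2.4.6, pandas 2.3.3, scipy 1.17.1 and matplotlib 3.10.9 were used.

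The study describes replicates only as different passages. To see if a shared number also ties libraries together, each library's log2 CPM was centred on its line over 13018 genes. Across lines, equally numbered libraries then correlated at 0.228 to 0.899 in all 9 pairs. Replicates 2 and 3 of different lines also correlated with each other, at 0.386 to 0.802. BrM2 replicate 2 was closer to Par replicate 3 (0.768) than to Par replicate 2 (0.228). The correlations thus set replicate 1 apart from the others more clearly than they pair replicates 2 and 3. The numbers were taken to pair the libraries, and calls with the block rest on that choice. The block lowered the common dispersion from 0.110 to 0.0207. The p-values set a difference between lines against the spread between these libraries, which includes the replicate 1 shift in the fits with the line alone. They do not cover the spread between separately selected lines of the same tropism.

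The 10 genes and the lists were chosen with earlier results of these data known. By the rule for named genes the text covers the 10 genes, and from the lists up to 4 genes per list and comparison past the threshold with the smallest adjusted p, their main receptors, and receptors at or under 3 counts in all libraries. Other genes (ADAMTS3, FURIN, ECE1, EDN2, EDN3, CIB1, SGPP1, SPHK2, S1PR2, ANGPT1, ANGPT2, ANGPT4, THBS1 and COL18A1) were named after their values were seen. Alternatives were RLE normalization, no filter, filterByExpr, DESeq2, the replicate block and leaving out libraries.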

Additional observations from a re-analysis of the deposited data

Results flagged for a closer look

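A difference between the changes that LM2 and BrM2 show from Par was found for 13 genes. These are 2 of the 9 tested growth factor genes and 11 of the 45 tested listed genes, where 8.10% of all tested genes passed. The genes and lists were chosen with earlier results of these data known, so these counts are a description. The test is the BrM2 against LM2 comparison, in which Par cancels (edgeR quasi-likelihood, adjusted over 13018 genes). Of the 10 growth factor genes, CCBE1 differed by 9.28 on the log2 scale (edgeR adjusted p = 6.56e-05), being lower than Par in all 3 LM2 libraries and higher in all 3 BrM2 libraries. PDGFB differed by -2.28 (adjusted p = 0.0406), being 11.7-fold above Par in LM2 and 2.42-fold in BrM2, and the call was lost in 6 of the 9 fits that leave out 1 library.

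Of the further listed genes, 8 were higher in BrM2 than in LM2, ADAMTS1 by 6.28, PCSK6 by 4.78, THBS2 by 4.50, PCSK5 by 2.50, FGFR4 by 2.48, TIE1 by 2.35, S1PR3 by 1.92 and FGF5 by 1.71 on the log2 scale. Lower in BrM2 were ADAMTS14 by a log2 fold change of -5.37, ANGPTL4 by -1.84 and EDNRB by -1.58. Adjusted p-values of these 11 genes lay between 4.2e-05 and 0.0204 (edgeR). The calls of FGF5, FGFR4, TIE1 and ANGPTL4 were lost without LM2 replicate 2, those of FGFR4 and TIE1 also without LM2 replicate 3, and those of FGF5 and ANGPTL4 also without BrM2 replicate 2 or 3. The causes of these differences were not tested.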

How the results depend on the processing

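RLE normalization, filterByExpr and no filter left the direction of all 27 fold changes of the 9 tested genes as it was, and RLE moved the median of all genes by at most 0.034. The replicate block gave 7 of the 10 genes called in BrM2 against Par and 5 in BrM2 against LM2 (4 and 2 without it). It gave 4491, 5557 and 4887 of all genes called in LM2 against Par, BrM2 against Par and BrM2 against LM2 (1129, 1723 and 1055 without it), and 23, 31 and 22 further listed genes (13, 20 and 11 without it). The calls it added for the 10 genes and for most partners named are given beside the results, and the other added calls only as counts. It removed no call of the 10 or of the listed genes. The block without replicate 1, chosen after seeing the data, gave 3639, 4796 and 3724 of all genes, 20, 28 and 19 listed genes, and 7, 6 and 3 of the 10 genes. PDGFB in BrM2 against Par and PGF and SPHK1 in BrM2 against LM2 then lost the calls they had with the block. DESeq2 called 1886 genes in LM2 against Par and 1817 in BrM2 against LM2. Of the 10 genes it called 7 in LM2 against Par, where it added PGF, and 5 in BrM2 against Par, where it added SPHK1.

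Leaving out libraries, singly or all 3 of a replicate number, gave 1 to 7, 0 to 6 and 1 to 5 of the 10 genes called in the same order of comparisons, 1 to 22, 8 to 29 and 3 to 20 listed genes, and 70 to 4302, 154 to 5254 and 53 to 4244 of all genes. The highest counts of all genes came without replicate 1 and the lowest without replicate 2. CCBE1 in LM2 against Par and BrM2 against LM2 was called in every fit.

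Signs changed for 4 differences, none of them called with the line alone on all 9 libraries. Of these, PGF in BrM2 against LM2 was called with the block, and with the line alone once replicate 1 was left out. PDGFC in LM2 against Par went from 0.02 to -0.051 without Par replicate 1, -0.069 without LM2 replicate 2, -0.060 without LM2 replicate 3 and -0.024 without replicate 2, in a range up to 0.18. In BrM2 against LM2, PDGFA went from -0.04 to 0.15 without LM2 replicate 1, 0.12 without BrM2 replicate 2, 0.070 without replicate 1 and 0.052 with the block and no replicate 1, in a range down to -0.19. PGF ranged from -1.22 to 0.0011, the latter without LM2 replicate 1, and EDN1 from -0.36 to 0.097 without replicate 1, and 0.11 with the block and no replicate 1. The causes were not tested. Depth limits FGF2, PDGFB in Par and CCBE1 in LM2, at 0 to 10 counts per library.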
